A study of Homo sapiens with 7 samples.

Results

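The stretch of the average gene profile from 30 to 60 kb downstream of position 0 was examined as 30 bins of 1 kb, out of 120 such bins between 0 and 120 kb. The bins were chosen by distance, not by signal. In this stretch nascent transcription was 28.4% under the untreated level at 2 h after ultraviolet C (UVC) irradiation and 0.58% above it at 24 h on the deposited scale. The side of the untreated level at 24 h is not settled. The ratio of 1.006 became 0.990 with each profile's own sum as the scale and 0.854 with the kilobase farthest upstream. The near end came back before the far end. A bin at 30 kb had regained 50% of its 2 h loss at an interpolated 4.33 h, and a bin at 59 kb at 7.68 h, as deposited. The same order was found after division of every profile by its own sum (3.06 and 7.30 h), but with the kilobase farthest upstream as the scale no bin of the 30 regained 50% by 24 h.

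UVC light joins neighbouring pyrimidines in DNA, and such lesions on the template strand stall RNA polymerase II. Stalled polymerase recruits transcription-coupled nucleotide excision repair, which removes the lesion and lets transcription pass again. A polymerase far from its start has crossed more template than one near it, so the body of long genes is the classic place to follow the loss and return of transcription after UV.

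The cells were MRC5VA, a human lung fibroblast line transformed with SV40, all of 1 line and cultured in standard DMEM medium. The Untreated group (0 h, no UVC) and the UV-2h, UV-5h, UV-8h, UV-10h, UV-12h and UV-24h groups (15 J per square metre, harvested at the hour in the name) held 1 library each, 7 in all. Global run-on sequencing (GRO-seq) was used. In this assay isolated nuclei extend the transcripts already under way, here for 5 min with bromouridine triphosphate, and the labelled RNA is captured and sequenced. The labels name no defining marker and the profiles hold no genes, so the identity of the cells could not be checked.

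The deposited values are an average read coverage for each base, in units whose scaling factor is not stated. All values of a library (100%) were multiples of 1 step, to within 0.001 steps, from which 2728477 (UV-2h) to 6916278 (UV-12h) reads were recovered in the stretch and 77170 to 266941 per 1-kb bin. Intervals below are 95% intervals from these reads. They cover counting error only, and neither the spread between cultures nor that between genes is known, so no test between times was possible. An average over cells and genes cannot tell fewer transcribing cells or genes from fewer polymerases in each. UV-10h, UV-12h and UV-24h were also the deepest libraries, and the part of depth in the results was not tested.

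In untreated cells the mean signal from 30 to 60 kb was 3.50 ± 0.23 (SD over 30 bins). The UV-2h, UV-5h and UV-8h libraries had means of 2.51 ± 0.27, 2.96 ± 0.33 and 3.14 ± 0.32. UV-10h, UV-12h and UV-24h had 3.31 ± 0.35, 3.44 ± 0.37 and 3.52 ± 0.25. The means thus followed the order of time, and these SDs describe the slope along the gene, since signal declined with distance in each library. The decline per 10 kb was smallest in untreated cells and at 24 h, where signal fell by 0.26 and 0.28 units. Signal dropped by 0.31 units per 10 kb at 2 h, decreased by 0.38 at 5 h, and was steepest at 12 h, where it fell by 0.42.

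**Figure D1:**
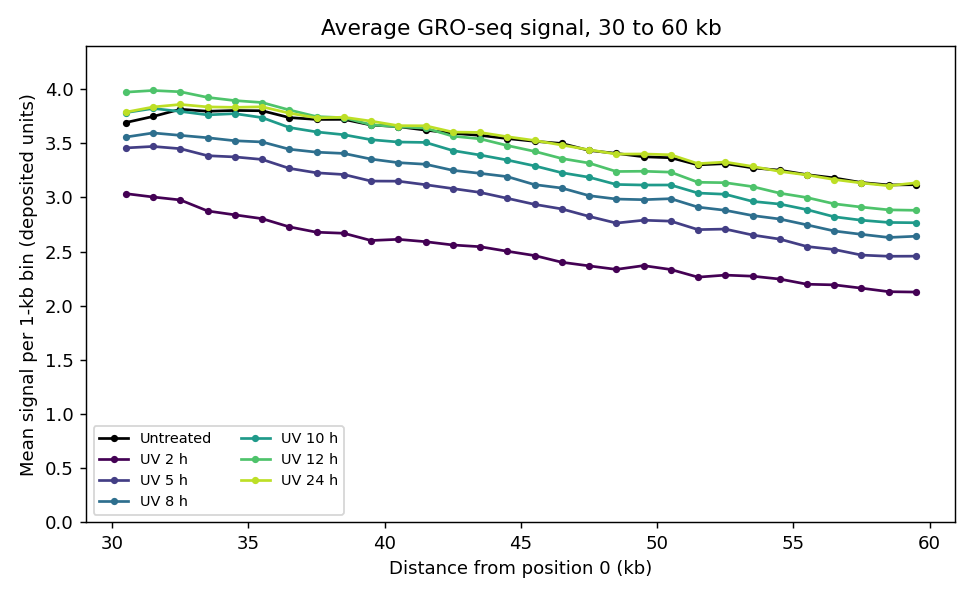
Mean deposited signal (vertical axis, deposited units) in each of the 30 bins of 1 kb (horizontal axis, distance from position 0 in kb), 1 line per library. The 2 h line is lowest in every bin, and the 12 h line lies above the untreated one at 30 kb (3.97 against 3.69) and under it at 59 kb (2.88 against 3.12).

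The share of the signal between 0 and 100 kb that lay in this stretch is free of library scale. It depends, however, also on the signal at the other distances. From 10 to 30 kb, for example, the deposited ratio to untreated was 1.086 at 2 h. The share amounted to 31.4% in the untreated library and to 25.8%, 29.04%, 29.9%, 30.4%, 30.6% and 31.1% in the UV libraries in order of time. On this measure too the stretch was poorest at 2 h and each later library lay nearer to the untreated one, most of the return having been made by 5 h.

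The ratio to untreated over the whole stretch was 0.716 at 2 h (95% counting interval 0.715 to 0.717). The 5 h and 8 h ratios were 0.846 (0.845 to 0.848) and 0.897 (0.896 to 0.899). Those of 10, 12 and 24 h were 0.946 (0.945 to 0.947), 0.984 (0.983 to 0.985) and 1.006 (1.005 to 1.007). Each step exceeded counting error. Each profile was also divided by its own sum from 0 to 100 kb, which removes the unknown scale but lets signal at other distances enter. The ratios were then 0.822, 0.925, 0.953, 0.968, 0.975 and 0.990 in the same order. These ratios are the shares given above relative to the untreated share, so the 2 are 1 measure. The loss at 2 h was then smaller and the 24 h library lay just under the untreated one, not above it, while the order of the times was the same.

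A bin was called lower when its ratio was under 0.9. At 2 h 30 of the 30 bins were lower, against 78.3% of all 120 bins. In the UV-5h library 27 were lower (all bins 73.3%) and in UV-8h 15 (62.5%). UV-10h had 5 lower bins (54.2%) and UV-12h had 0 (45.8%). UV-24h had 0, as over all bins (0%). The share of lower bins was thus above that of the whole profile at 2 and 5 h, under it at 8, 10 and 12 h, and equal to it at 24 h. No bin had a ratio over 1.1 at any time, where all bins gave 15%, 15.8%, 15.8%, 18.3%, 22.5% and 0.833% in order of time. Scaled to the own sum, 28 bins were lower in UV-2h (all bins 73.3%), 11 in UV-5h (59.2%) and 2 in UV-8h (51.7%). None of the 30 was lower in UV-10h (all bins 49.2%), UV-12h (48.3%) or UV-24h (0%).

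The 2 h loss deepened with distance most steeply in the near segment of the stretch. From 30 to 40 kb the 2 h ratio fell by 0.12 per 10 kb, from 0.822 in the bin at 30 kb to 0.709 in the bin at 39 kb. From 40 to 50 kb it fell by 0.032 per 10 kb, and from 50 to 60 kb by 0.0085, with bins between 0.682 and 0.694. The far end of the stretch was therefore nearly level at 2 h. At 5 h the same far segment was no longer level, since its ratio fell by 0.047 per 10 kb, from 0.826 at 50 kb to 0.788 at 59 kb. A similar gradient was found there at 8 h (0.888 to 0.847) and at 12 h (0.960 to 0.924). At 24 h the 30 ratios lay between 0.995 (56 kb) and 1.026 (30 kb), and the line through them fell by 0.0059 per 10 kb.

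**Figure D2:**
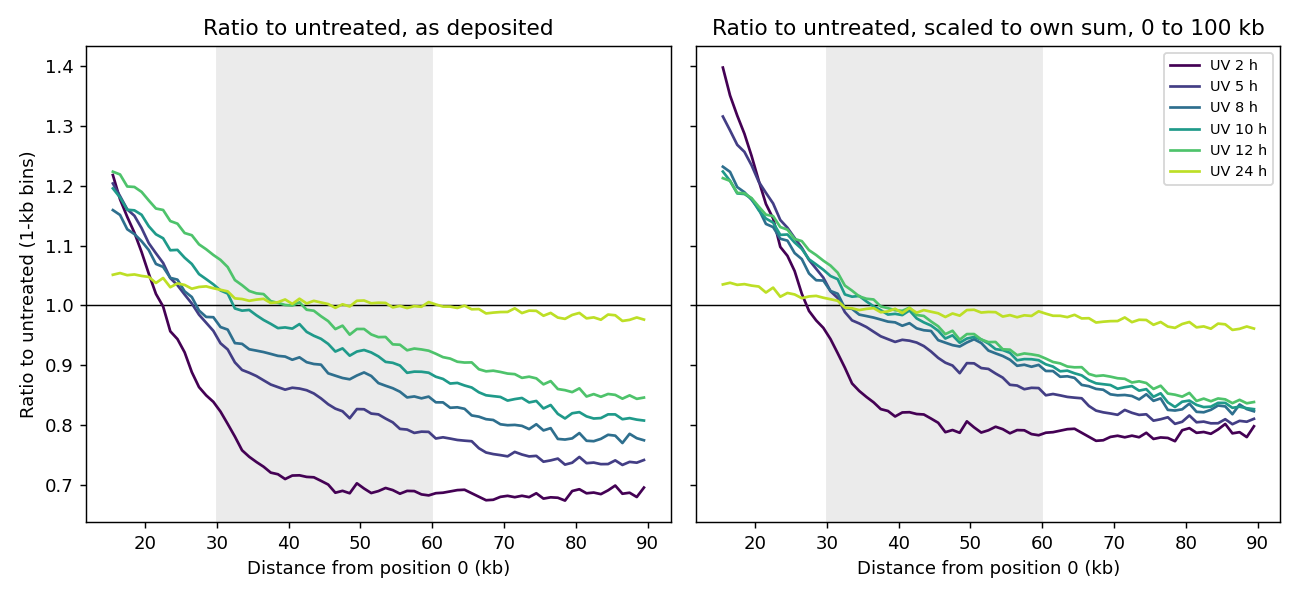
Ratio to untreated (vertical axis) in bins of 1 kb against distance from position 0 in kb, for the 6 UV times, as deposited (left) and after scaling to the own sum (right), with 30 to 60 kb shaded. On both scales the 2 h curve flattens inside the shaded stretch, whereas the 5 to 12 h curves still slope downwards at 60 kb.

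The distance at which a given ratio was met moved outwards with time. The point from which the ratio stayed under 0.9 for 3 bins in a row was 26.1 kb in the UV-2h library. In the next 4 libraries (5, 8, 10 and 12 h) it was 32.9, 44.6, 55.3 and 65.9 kb. This point therefore entered the stretch between 2 and 5 h and left it between 10 and 12 h. A ratio of 0.8 was met at 31.6, 54.9 and 70.1 kb in the 2, 5 and 8 h libraries. The distance at which signal equalled the untreated level was 22.4, 26.7, 27.1, 32.3 and 41.9 kb from the 2 h to the 12 h library. On the own-sum scale the 0.9 point was 32.3, 50.9, 59.5, 60.8 and 63.04 kb for the same 5 times, so that most of its movement then fell between 2 and 8 h.

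The part of the 2 h loss regained was computed for each bin as the gain in ratio since 2 h divided by the loss at 2 h. Over the whole stretch it was 45.9%, 63.8%, 80.9%, 94.4% and 102% in the 5, 8, 10, 12 and 24 h libraries. From 30 to 40 kb the values were 55.3%, 72.4%, 95%, 112% and 105%. From 40 to 50 kb they were 46.3%, 64.3%, 80.0%, 92.8% and 101%, and from 50 to 60 kb 36.8%, 55.4%, 68.7%, 80.1% and 100.4%. At every time up to 12 h the nearer segment was ahead of the next one, and at 24 h the 3 segments were within 5 percentage points of each other.

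Single bins spread more widely than the segments. At 5 h the bin at 30 kb had regained 64.3% and the bin at 57 kb 31.3%, the highest and lowest values of the 30. At 12 h the bin at 30 kb stood at 143% and the bin at 56 kb at 75.8%. At 5 h 13 of the 30 bins had regained 50%, against 21.2% of all 99 bins with a 2 h loss, and at 8 h 30 of 30 had, against 39.4%. All 13 ended by 43 kb. After scaling to the own sum these counts were 21 at 5 h (25.8% of 93 bins) and 30 at 8 h (35.5%).

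**Figure D3:**
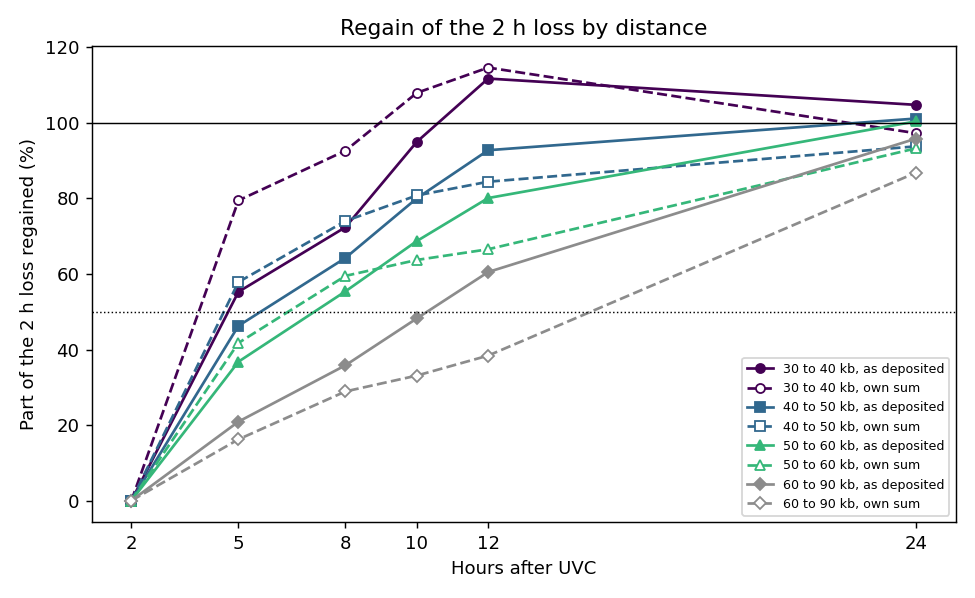
Part of the 2 h loss regained (vertical axis, %) against hours after UVC, for 3 segments of 10 kb and for 60 to 90 kb, as deposited (solid lines, filled points) and scaled to the own sum (dashed lines, open points). The dotted line marks 50%, which the 30 to 40 kb segment had passed at 5 h (55.3% as deposited) and the 50 to 60 kb segment at 8 h (55.4%).

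The hour of 50% regain is the time at which straight lines between successive libraries meet 50%. For the stretch as a whole it was 5.69 h (95% counting interval 5.63 to 5.75). It was 4.71 h from 30 to 40 kb, 5.62 h from 40 to 50 kb and 7.13 h from 50 to 60 kb, with counting standard errors of 0.020, 0.050 and 0.046 h. The bins that start at 30, 35, 40, 45, 50 and 55 kb had hours of 4.33, 4.73, 4.91, 5.90, 6.005 and 7.37, and the last bin (59 kb) one of 7.68. The earliest hour was that of the bin at 30 kb and the latest that of the bin at 56 kb (7.94 h). Each of the 30 bins passed 50% a single time, 13 of them between 2 and 5 h and 17 between 5 and 8 h.

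The least-squares line over the 30 bins had a slope of 0.127 h per kb (counting standard error 0.0026), the inverse of which is 7.88 kb for each hour. The distance of 50% regain itself moved from 42.8 kb at 5 h to 60.05 kb at 8 h, or 5.75 kb for each hour. Bins scattered about the line with an SD of 0.32 h, more than their own counting errors of 0.060 to 0.19 h, so a straight line does not describe them fully. Within segments the slope was 0.062 h per kb from 30 to 40 kb, 0.19 from 40 to 50 kb and 0.22 from 50 to 60 kb. All 10 bins from 30 to 40 kb were interpolated between 2 and 5 h. All 10 from 50 to 60 kb were interpolated between 5 and 8 h. The stretch gained 4.34 and 1.70 percentage points per hour in these 2 intervals. How much of the change in slope comes from where the sampled hours lie was not tested. The hour was later in 22 of 29 steps from a bin to the next and earlier in 7, among them the steps from 48 kb (6.46 h) to 49 kb (6.32 h) and on to 50 kb (6.005 h). Neighbouring bins share genes and all 7 libraries, so these counts are a description.

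**Figure D4:**
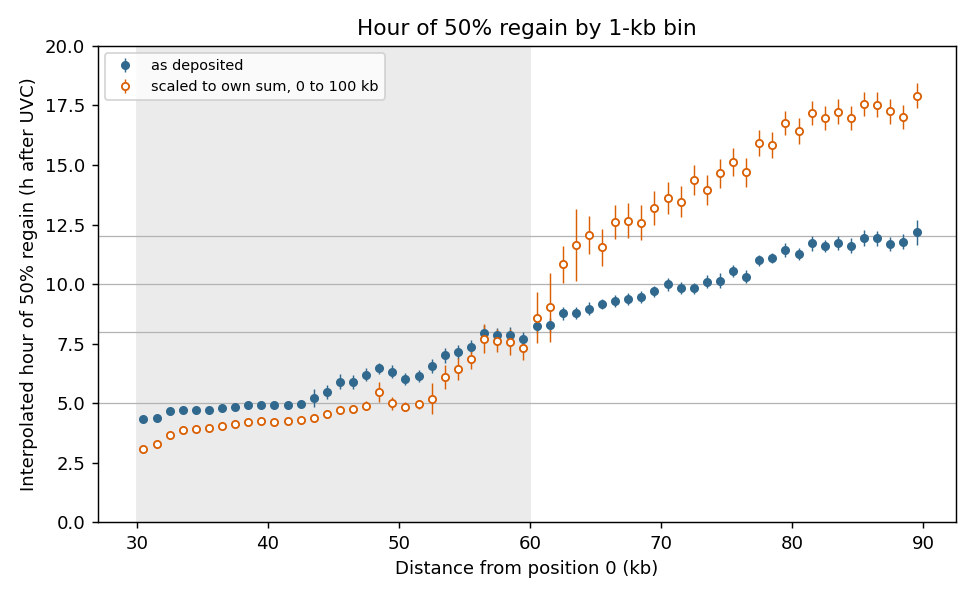
Interpolated hour of 50% regain (vertical axis, hours after UVC) for each bin of 1 kb from 30 to 90 kb (horizontal axis), as deposited (filled) and scaled to the own sum (open), with bars of 95% counting error, 30 to 60 kb shaded and thin lines at the sampled hours. In the shaded stretch the open points lie under the filled ones (means 4.98 and 5.83 h), and beyond 60 kb they lie above them.

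The UV-5h library set much of the slope. Without it the slope over the 30 bins was 0.069 h per kb and the hour of the whole stretch 6.70 h. Without the 8 h library it was 0.123. Leaving out the 10, 12 or 24 h library could not change it, since all 30 hours fell before 8 h. Subtracting each profile's lowest kilobase also lowered the slope, to 0.074. That kilobase lay at 118 or 119 kb in the UV profiles and before position 0 in the untreated one. The amount removed was therefore not a common background, and this slope does not show how the result depends on one. When profiles were scaled to their farthest upstream kilobase (2 to 1 kb before position 0), 0 of the 30 bins reached 50% by 24 h, the highest part regained being 41.6% (36 kb, 12 h). On that scale the lowest ratio of all 30 bins was found at 8 h, not at 2 h. The ratio of the stretch moved from 0.716 to 0.859 at 2 h and from 0.897 to 0.727 at 8 h. As deposited, the upstream kilobase was thus itself under untreated at 2 h and above it at 8 h. Values on that scale therefore include the change upstream.

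Scaling to the own sum made the hour earlier in 30 of 30 bins, by 0.23 h (56 kb) to 1.37 h (52 kb). The hour of the whole stretch became 4.59 h (95% counting interval 4.56 to 4.62), and those of the segments 3.89, 4.59 and 6.39 h from near to far. Single bins ran from 3.06 h at 30 kb to 7.71 h at 56 kb, and 21 of them now passed 50% between 2 and 5 h. The slope was 0.138 h per kb, the inverse of which is 7.23 kb for each hour, with a residual SD of 0.52 h. The distance of 50% regain itself moved less on this scale, from 51.9 kb at 5 h to 60.2 kb at 8 h, or 2.76 kb for each hour. The slope was unevenly spread, at 0.12 h per kb in each of the 2 nearer segments and 0.35 in the farthest, where the hours ran from 4.86 (50 kb) to 7.71. From near to far, 10, 9 and 2 of the 10 bins of a segment passed 50% between 2 and 5 h, and the others after 5 h. A later hour at the far end was thus found on both scales, whereas the slope of the nearest segment differed between them (0.062 and 0.12 h per kb).

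A fixed level gave the same order as a part of the loss. The hour of a fixed level also depends on the depth of the 2 h loss, with 2 h ratios of 0.822 at 30 kb and 0.682 at 59 kb. This order is therefore not separate evidence of a later return. As deposited, the bins at 30, 40, 50 and 59 kb reached a ratio of 0.9 at interpolated hours of 4.04, 7.43, 8.66 and 10.7. The mean over bins was 5.90 h from 30 to 40 kb, 8.26 h from 40 to 50 kb and 9.91 h from 50 to 60 kb. On the own-sum scale these means were 3.36, 4.598 and 6.89 h, with 28 bins having a value, since the bins at 30 and 31 kb were above 0.9 already at 2 h.

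Return was fastest between 2 and 5 h. Over the stretch the ratio gained 4.34 percentage points of the untreated level per hour in that interval. The gain was 1.70 points per hour from 5 to 8 h, 2.42 from 8 to 10 h, 1.92 from 10 to 12 h and 0.18 from 12 to 24 h. All 30 bins gained in each of the 4 intervals up to 12 h. On the own-sum scale the rates were 3.44, 0.95, 0.73, 0.37 and 0.12 points per hour, and 1 of the 30 bins (34 kb) was lower by 0.07 points at 12 h than at 10 h.

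From 12 to 24 h the ends of the stretch went opposite ways. In the bin at 30 kb the ratio fell by 5.00 percentage points and in the bin at 59 kb it gained 8.14. Of the 10 bins from 30 to 40 kb, 8 were lower at 24 h than at 12 h, and the segment mean fell by 1.73 points. All 20 bins beyond 40 kb were higher, as deposited. With the own sum as the scale, 9 of 10 bins from 30 to 40 kb were lower, as were 2 of 10 from 40 to 50 kb. All 10 from 50 to 60 kb were higher on that scale too. At 12 h 11 of the 30 bins were above the untreated level (33.3% of all bins), 10 of them between 30 and 40 kb, the highest at 1.076 (30 kb). At 10 h 2 were (25.8%) and at 24 h 23 (45%). The highest ratio of the time course was that of 12 h in 8 bins, those from 30 to 38 kb, and that of 24 h in the other 22. On the own-sum scale UV-10h had 6 bins above untreated (29.2% of all bins), UV-12h had 7 (30%) and UV-24h had 2 (26.7%). The ratio of the 30 kb bin at 12 h was then 1.067.

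Fine irregularities of the profile were shared in part by the libraries and were smaller in the ratios, relative to counting error. About their own neighbours, the bin signals scattered by 0.42% to 0.69%, with 2.22 to 5.75 times the variance that counting gives. The ratios scattered by 0.36% to 0.53%, with 0.84 to 1.74 times the counting variance. Second differences of the log signal over 28 bin triples correlated with those of the untreated library at Pearson's r of 0.52 to 0.76, and over all 21 pairs of libraries r ran from 0.36 to 0.88. This r is across positions of profiles that share the same genes, so it is a description. The gap between the neighbouring ratios of 0.826 at 49 kb and 0.811 at 48 kb (5 h) is larger than this local scatter of single bins. It is 1 step picked from 29 and not particular to 5 h. The ratio was higher at 49 than at 48 kb at 2 h (0.702 and 0.685) and at the later times too. All these ratios share the untreated library.

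The bins just outside, at 29 and 60 kb, had deposited hours of 4.04 and 8.24, beside 4.33 and 7.68 just inside. On the own-sum scale they had 2.67 and 8.59, beside 3.06 and 7.30 just inside. The gap across the far bound was wider on that scale, but the counting errors were larger too. The standard errors at 59 and 60 kb were 0.24 and 0.54 h, against 0.16 and 0.15 h as deposited. From 10 to 30 kb the mean ratio was above untreated already at 2 h (1.086), and 12 of its 20 bins had no 2 h loss to regain. From 60 to 90 kb the 2 h ratio (0.684) was close to that of 50 to 60 kb (0.688), but at 5 h 20.9% had been regained against 36.8%, and at 12 h 60.5% against 80.1%. Its hour of 50% regain was 10.3 h as deposited and 14.9 h after scaling to the own sum, which made 30 of its 30 bins later, where it made 30 of 30 earlier between 30 and 60 kb. With 1 library per time these differences were not tested.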

How the data were processed

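The authors deposited 1 average gene profile per library, with a signal (read coverage on a linear scale) for each of 122001 positions from -2000 to 120000. BWA 0.5.9 and the builds hg19 and GRCh37 are named in the submitters' processing notes. The list of genes averaged, the strand handling and the scaling factor are not given in the sources used here. Position 0 is taken as the transcription start, and the profiles hold no genes or coordinates. Libraries were grouped by title.

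Bins are means over 1000 positions. Reads were recovered as summed signal divided by the step and by a read extension of 250 bp, and counting errors were propagated from them. No pseudocount or filter was used. With 1 library per condition no test was made. The named bins start every 5 kb, with the last bin and the extremes. The stretch, segments and measures were chosen with earlier results of these data known. Alternatives were other scalings, subtraction of each profile's lowest kilobase (called background subtraction), medians and other interpolation. Other bin sizes and leaving out each library after 2 h were also tried. Python 3.11.15 with numpy 2.4.6 was used, and the code was tested on simulated data.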

Additional observations from a re-analysis of the deposited data

Results flagged for a closer look

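In several places the same distances lay under the untreated level at some times and above it at others by more than counting error. Whether the times differ was not tested, since each has 1 library. From 30 to 60 kb the ratio was 1.006 at 24 h and under 1 at the 5 other times, and from 40 to 50 kb it was 1.003 at 24 h. Neither held after scaling to the own sum, which gave 0.990 and 0.988. From 30 to 40 kb the ratio was 1.029 at 12 h and 1.012 at 24 h and under 1 at the 4 earlier times. After scaling to the own sum it was 1.020 at 12 h and 0.996 at 24 h, so that the 12 h value stayed above untreated and the 24 h value did not.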

How the results depend on the processing

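Values are in the order 2, 5, 8, 10, 12 and 24 h. At this depth nearly any change of processing exceeds counting error, so directions tell more than sizes. Ratios from 30 to 60 kb with the own sum as the scale were 0.822, 0.925, 0.953, 0.968, 0.975 and 0.990. With the far upstream kilobase as the scale they were 0.859, 0.789, 0.727, 0.7998, 0.896 and 0.854. Background subtraction gave 0.598, 0.884, 0.998, 1.078, 1.130 and 0.906, and medians 0.704, 0.839, 0.891, 0.940, 0.977 and 1.001. The kilobase subtracted lay at 118 kb in the UV-2h to UV-12h profiles and at 119 kb in UV-24h. In the untreated profile it lay before position 0. What was removed is therefore not a common background, and in the UV libraries it was signal of the profile's far end. The side of the untreated level thus changed at 10 and 12 h under background subtraction, and at 24 h under both scalings and background subtraction. Since unlike places were subtracted, the changes under background subtraction cannot tell the side. The cause of the changes under both scalings was not tested.

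The hour of 50% regain (5.69) became 4.59 with the own sum, 4.11 with background subtraction, 5.76 with medians, 5.57 with lines in log2 hours, 4.997 with log2 ratios and 5.86 against the 24 h level. The slope (0.127 h per kb) became 0.138 with the own sum, 0.074 with background subtraction, 0.098 with log2 ratios and 0.120 against the 24 h level. Medians, log2 hours and bins of 500 and 2000 bp left it within counting error. Leaving out 1 library gave hours from 5.59 to 6.70 and slopes from 0.069 to 0.127, the value farthest from the full set being that without the 5 h library in both. Leaving out the 10, 12 or 24 h library could change neither, since every hour fell before 8 h. Far upstream scaling gave no hour. No paired analysis was possible because no group has a second sample.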
